A study of Mus musculus with 30 samples.

Results

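A set of 10 core and output genes of the circadian clock, of 41549 genes in the table, was read in 3 tissues of the same 10 mice: white fat from the inguinal depot (iWAT), brown fat from between the scapulae (iBAT) and liver. The members were chosen by name, with earlier results of these data known: Per1, Per2, Per3, Cry1, Clock, Dbp, Tef, Nr1d1, Nr1d2 and Nfil3. The groups were 5 wild-type (WT) and 5 LFABP-/- mice, the latter null for Fabp1, the gene of liver fatty acid-binding protein, and each mouse gave 1 library from each tissue, 30 in all. Both genotypes were males on a C57Bl/6J background. They were kept under a 12 h light/dark cycle, were 2 months old when a high-fat diet (45% of energy) began, ate it for 12 weeks, were without food for 4 h and were anesthetized before collection. The hour of collection is not given in the sources used here. Each mouse was collected once, so the phase of a rhythm, its amplitude and its mean level cannot be told apart, nor can genotype and any difference in collection hour between the genotypes.

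The mammalian clock is a transcriptional loop present in nearly every cell. CLOCK and its partner ARNTL (BMAL1) activate genes through E-box elements, among them the Per and Cry genes, whose proteins then repress that activation. A further loop joins the nuclear receptors NR1D1 and NR1D2 (REV-ERB), which repress Arntl, Clock, Cry1 and Nfil3, and output is carried by the PAR bZIP factors DBP, TEF and HLF, which compete with the repressor NFIL3 for D-box elements. In liver and adipose tissue these outputs reach genes of lipid, heme and xenobiotic metabolism, and feeding time can shift the clock of such tissues.

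The letters of these elements were searched on both strands in RefSeq windows from 250 bases before to 50 after annotated starts (build GRCm38.p6), of which 9 of the 10 members had at least 1, in 13 windows. The E-box CACGTG was in 4 of the 13 (2 of Tef, 1 each of Per1 and Cry1) and in 7.15% of all 32851 windows. The D-box TTATGTAA or TTACGTAA was in 1, that of Per3, and in 1.06% of all. The cAMP response element TGACGTCA (1.79% of all) and the letters AANT directly before AGGTCA, read by ROR and REV-ERB receptors (0.219%), were in none of the 13. The following stretches, with the matched letters in capitals, are shown because Per3 and Tef were lower, Cry1 higher and Per1 not called in iBAT of LFABP-/- mice, as described below. A match describes the sequence and not a bound site. All lie upstream of a start and outside annotated exons, those of Tef and Per1 within the annotated span of the gene, at chr4:151044804-151044882 (minus strand), chr15:81811264-81811293 (plus), chr10:85185097-85185126 (minus) and chr11:69098771-69098800 (plus).
Per3: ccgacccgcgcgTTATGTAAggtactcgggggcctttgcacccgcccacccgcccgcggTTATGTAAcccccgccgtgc
Tef: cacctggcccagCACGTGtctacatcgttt
Cry1: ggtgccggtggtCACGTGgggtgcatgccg
Per1: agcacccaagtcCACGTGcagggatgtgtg

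Values are on the TPM scale, which is per length of transcript, so levels of different genes can be compared. All 10 members passed the filter of a mean of at least 1 in each tissue. The sequencing depth behind them is unknown, and the errors given are between mice. Fabp1 checked the labels: it was 9165.5 to 12697.6 in the 5 WT livers and 0.2 to 51.8 in the 5 LFABP-/- livers. In iWAT it was 1.9 to 23.9 in WT and 0.2 to 0.9 in 4 LFABP-/- libraries, but 196.1 in the library labelled LFABP-/- replicate 1, where 8 hepatocyte markers summed to 2289.3 against 105.6 to 531.1 in the other 9. In iBAT, Fabp1 was 1.4, 0.2, 0.4, 5.1 and 8.7 in WT and 0.4, 2, 21.2, 15 and 13.1 in libraries labelled LFABP-/-. The last 3 of these, which are the LFABP-/- mice with G32 names, were above every WT library, so Fabp1 went against the labels of those iBAT libraries, at levels far below those of WT liver (log2 fold change 1.48, limma adjusted p = 0.276). Genotypes below are those of the labels. All 8 hepatocyte markers also had a mean of at least 1 in iBAT, where their sum was 3.6 to 99.1 in WT and 182.7 to 1803.6 in LFABP-/- libraries, at most 1.41% of the mean sum of WT liver. The 6 brown adipocyte markers summed to 8257.1 to 10277.1 and 10245.0 to 13476.6 in iBAT. Skeletal muscle markers (10) summed to 1561.7 to 41610.9 and 247.0 to 17922.6 there, and lymphocyte markers (12) to 23.8 to 2635.8 and 42.5 to 2036.4 in iWAT. In iWAT, LFABP-/- replicate 2 also stood apart in brown adipocyte markers (1655.2 against 36.6 to 161.8) and replicate 4 in skeletal muscle markers (5396 against 36.6 to 797.8). Their part in the results below was not tested, except where a covariate is named.

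The clock genes differed between genotypes most widely in iBAT, where 8 of 10 were called: Dbp, Per3, Tef, Per2 and Nr1d2 fell and Nfil3, Cry1 and Clock rose in LFABP-/- mice. Here a call means a limma adjusted p under 0.1, with Benjamini-Hochberg adjustment over the genes tested in a tissue. The share of all tested genes called in iBAT was 47.8% (22.3% higher and 25.5% lower), so a call there is common. Since the members were chosen with earlier results of these data known, 8 of 10 is not the rate of an unselected set. Without the 3 libraries labelled LFABP-/- whose Fabp1 was above every WT library, the same count of 8 was called, 3 higher and 5 lower, with log2 fold changes of -2.94 for Dbp and 2.10 for Nfil3. That fit kept only LFABP-/- replicates 1 and 2 (n = 2), both with G30 names. They had the lowest Dbp and the highest Nfil3 of their genotype in iBAT, so the omission cannot be told apart from the prefix. In iWAT 1 member was called, Nfil3, which rose, against 1.45% of all genes (0.682% higher and 0.770% lower), and in liver 1, Nr1d2, which fell, against 16.9% (3.08% higher and 13.9% lower). Values of the genotypes did not overlap for 5 members in iBAT (26.4% of all genes), 1 in iWAT (3.11%) and 1 in liver (10%). In bulk tissue, fewer cells of a type and less RNA per cell cannot be told apart.

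**Figure D1:**
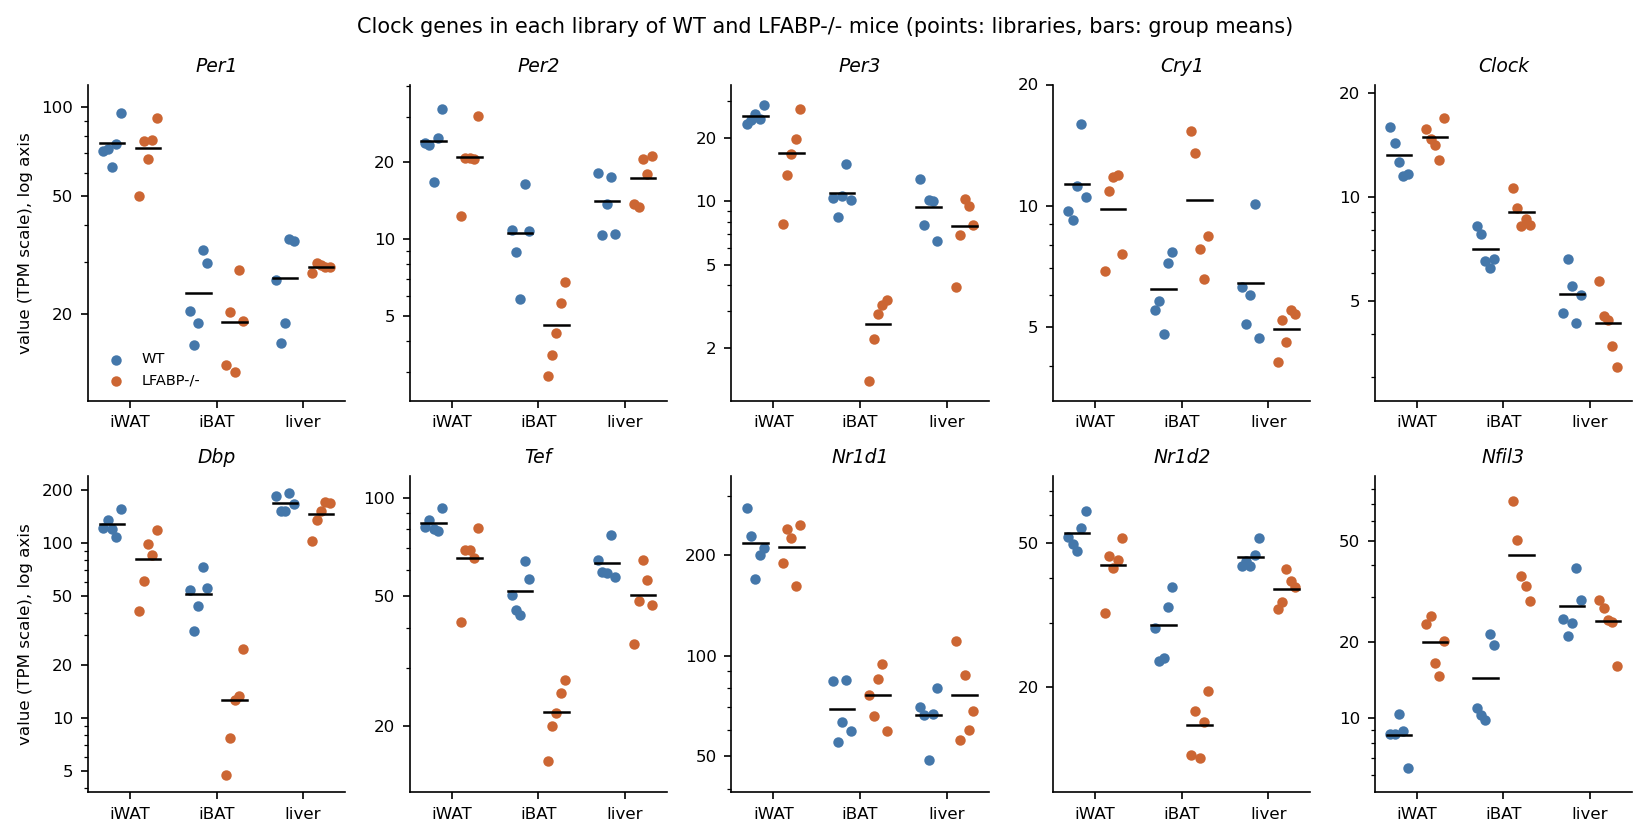
Values (TPM scale, log axis) of the 10 clock genes in each library, with blue points for WT, orange points for LFABP-/- and black bars for group means (n = 5). In iBAT the orange points of Dbp, Tef, Per3 and Nr1d2 lie wholly below the blue ones and those of Nfil3 wholly above.

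Of the output activators, Dbp, which drives D-box genes, differed most. In iBAT, Dbp (chr7:45705088-45710203) was 54.3, 31.5, 43.6, 72.9 and 55.2 in WT replicates 1 to 5 and 4.7, 7.7, 12.7, 13.3 and 24.7 in LFABP-/- replicates 1 to 5. Every LFABP-/- library was below every WT library, and the means were 51.5 ± 15.3 and 12.6 ± 7.64 (SD, n = 5). The difference was 4.38-fold lower (log2 fold change -2.13, SE 0.38, limma adjusted p = 0.0021, exact permutation p = 0.0079, two-sided). That p is the smallest that 252 assignments of 5 and 5 libraries allow. In iWAT, Dbp was 122.2, 135.0, 120.6, 108.9 and 156.3 in WT and 41.1, 60.9, 99.0, 85.4 and 119.3 in LFABP-/-. Only the highest LFABP-/- value entered the WT range, yet Dbp was not called over all genes (log2 fold change -0.74, 95% interval -1.32 to -0.17, limma adjusted p = 0.289, exact permutation p = 0.016). Without the library labelled LFABP-/- replicate 1 it was -0.53. In liver the ranges overlapped, at 152.0 to 193.6 in WT and 103.4 to 170.9 in LFABP-/- (log2 fold change -0.24, interval -0.55 to 0.07, limma adjusted p = 0.292).

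Tef, a relative of Dbp, was lower in iBAT as well. Its values there were 50.4, 45.3, 43.7, 64.2 and 56.2 in WT and 15.6, 19.9, 21.9, 25.2 and 27.7 in LFABP-/- mice. The highest LFABP-/- value was well under the lowest WT value, and Tef was 2.34-fold lower (log2 fold change -1.23, SE 0.16, limma adjusted p = 0.00037). In iWAT it was 79.1 to 93.4 in WT and 41.6 to 80.6 in LFABP-/- mice, and in liver 57.1 to 76.7 and 35.6 to 64.5. Neither difference was called, at log2 fold changes of -0.39 (limma adjusted p = 0.395) and -0.35 (limma adjusted p = 0.150).

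Nfil3, which encodes the repressor that competes with DBP and TEF, moved the other way in both fat depots. In iBAT, Nfil3 (chr13:52967209-52981073) was 11, 10.3, 9.9, 21.5 and 19.4 in WT and 71.9, 50.3, 36.3, 33.2 and 29 in LFABP-/- mice. The groups did not overlap, and the LFABP-/- mean of 44.1 ± 17.5 exceeded the WT mean of 14.4 ± 5.57 (SD, n = 5) by a fitted 2.99-fold (log2 fold change 1.58, SE 0.29, limma adjusted p = 0.0025). In iWAT it was 8.7, 8.7, 10.4, 8.9 and 6.4 in WT and 23.6, 25.2, 16.5, 14.7 and 20.1 in LFABP-/- mice. Again no LFABP-/- value fell within the WT range, and Nfil3 was 2.23-fold higher (log2 fold change 1.16, SE 0.18, limma adjusted p = 0.0218). Without the library labelled LFABP-/- replicate 1 it stayed called in iWAT, at a log2 fold change of 1.09 (limma adjusted p = 0.060). In liver, values of 24.7, 21.2, 23.8, 39.2 and 29.2 in WT overlapped 29.3, 27.1, 24.3, 23.9 and 16.1 in LFABP-/- (log2 fold change -0.18, interval -0.59 to 0.22).

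Since DBP and NFIL3 compete, the log2 difference of Dbp and Nfil3 was computed in each library as a description. In iBAT it was 1.48 to 2.25 in WT, so Dbp was above Nfil3 in every library, and -3.80, -2.63, -1.48, -1.29 and -0.23 in LFABP-/- replicates 1 to 5, so Dbp was below Nfil3 in every library. In iWAT it was 3.47 to 4.51 in WT and 0.79 to 2.55 in LFABP-/- mice, again with no overlap. In liver it was 2.29 to 2.89 and 1.80 to 3.36, and the WT range lay inside that of LFABP-/- mice.

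**Figure D2:**
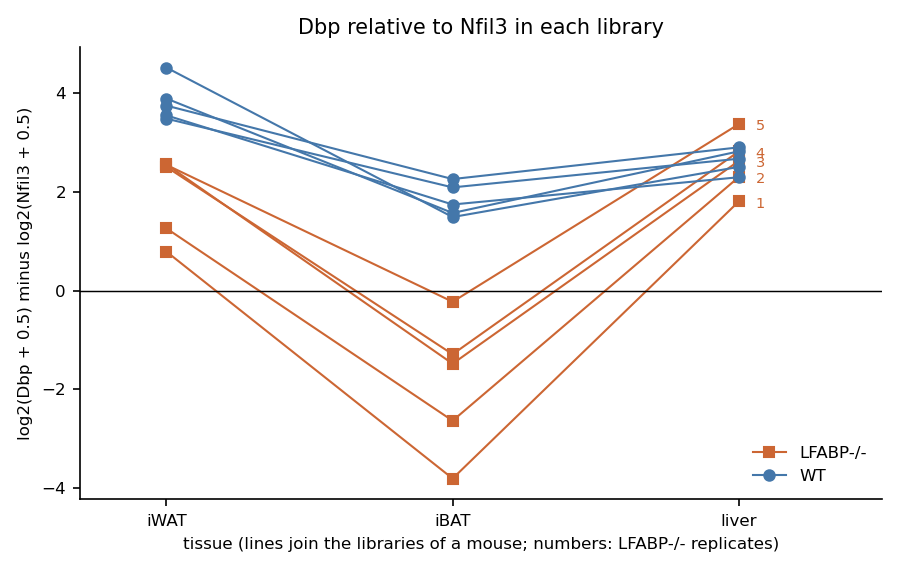
The log2 level of Dbp minus that of Nfil3 (y axis) in each tissue (x axis), with a line for each mouse, blue for WT and orange for LFABP-/-. The orange lines fall below 0 in iBAT, with the lowest at -3.80, and meet the blue ones in liver.

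The Per genes encode repressors of CLOCK and ARNTL, and they did not move as a block. Per3 in iBAT was 10.4, 8.4, 10.6, 15.1 and 10.2 in WT and 1.4, 2.2, 2.9, 3.2 and 3.4 in LFABP-/- mice. The ranges were far apart, and Per3 was 3.72-fold lower (log2 fold change -1.90, SE 0.21, limma adjusted p = 0.000185). Per2 in iBAT was 10.9, 8.9, 5.8, 16.5 and 10.8 in WT and 2.9, 3.5, 4.3, 5.6 and 6.8 in LFABP-/- mice. Only WT replicate 3 and LFABP-/- replicate 5 crossed, and Per2 was 2.14-fold lower (log2 fold change -1.10, SE 0.27, limma adjusted p = 0.0102). Per1, whose transcription also answers to hormonal and stress signals, overlapped widely: 15.7 to 33.0 in WT and 12.7 to 28.2 in LFABP-/- (log2 fold change -0.32, interval -0.89 to 0.24).

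In iWAT, Per3 was 23.4 to 28.9 in WT and 7.8, 13.4, 16.9, 19.8 and 27.5 in LFABP-/- mice, 4 of them below the lowest WT value (log2 fold change -0.67, interval -1.28 to -0.07, limma adjusted p = 0.395). Without the library labelled LFABP-/- replicate 1 this was -0.43. Per1 and Per2 overlapped in iWAT, at log2 fold changes of -0.07 and -0.23. In liver the log2 fold changes of Per1, Per2 and Per3 were 0.20, 0.31 and -0.32, none called, and Per1 was 27.5 to 29.8 in the 5 LFABP-/- livers against 15.9 to 35.8 in WT.

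Cry1 and Clock rose in iBAT. Cry1, a strong repressor of the loop, was 5.5, 5.8, 4.8, 7.2 and 7.7 in WT and 15.3, 13.5, 7.8, 6.6 and 8.4 in LFABP-/- mice. LFABP-/- replicates 1 and 2 stood above all others and the other 3 were near the WT range (log2 fold change 0.64, SE 0.23, limma adjusted p = 0.0461). Those 2 mice were the LFABP-/- mice whose library names begin G30. Among G30 names the Cry1 means were 5.37 (WT, n = 3) and 14.4 (LFABP-/-, n = 2), and among G32 names 7.45 (n = 2) and 7.60 (n = 3), and the call was lost without LFABP-/- replicate 2 (limma adjusted p = 0.102) or WT replicate 3 (0.103). Clock, the activator, was 8.2, 7.8, 6.5, 6.2 and 6.6 in WT and 10.6, 9.3, 8.2, 8.6 and 8.3 in LFABP-/- mice. The groups met at 8.2, and the difference was 1.26-fold (log2 fold change 0.33, SE 0.10, limma adjusted p = 0.0203). In iWAT the log2 fold changes of Cry1 and Clock were -0.20 and 0.17, and in liver -0.31 and -0.27, none called.

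The REV-ERB genes parted. Nr1d2 in iBAT was 29.1, 23.6, 24, 33.3 and 37.8 in WT and 12.9, 17.1, 12.7, 15.9 and 19.4 in LFABP-/- mice. All LFABP-/- values were below all WT values, and Nr1d2 was 1.86-fold lower (log2 fold change -0.90, SE 0.16, limma adjusted p = 0.00188). In liver it was 43.2, 44.7, 43.2, 46.3 and 51.7 in WT and 32.9, 34.4, 42.5, 39.4 and 37.8 in LFABP-/- mice. The ranges were adjacent, 42.5 against 43.2, and Nr1d2 was 1.22-fold lower (log2 fold change -0.29, SE 0.09, limma adjusted p = 0.0608). The median of all genes in liver was -0.10 as deposited and 0.00 with median-ratio scaling, under which Nr1d2 was -0.18 and no longer called (limma adjusted p = 0.110). Over all genes, liver calls were 358 higher and 1611 lower as deposited, and 1158 and 834 with that scaling. The call was also lost without any 1 of 4 libraries (WT replicate 2 and LFABP-/- replicates 1, 2 and 5, limma adjusted p = 0.112 to 0.127). The hepatocyte markers summed to 115500.2 to 137636.7 in WT livers and 84678 to 107754.7 in LFABP-/- livers, with no overlap, and their part was not tested. Mitochondrial genes held 12.1% to 15.1% of the value in WT livers and 16.9% to 18.1% in LFABP-/- livers, again with no overlap. Rescaled without mitochondrial genes, Nr1d2 was -0.22 and not called (limma adjusted p = 0.170). Liver calls over all genes were then 439 higher and 769 lower. In iWAT, Nr1d2 was 47.6 to 61.5 in WT and 32 to 51.7 in LFABP-/- mice (log2 fold change -0.30, limma adjusted p = 0.451).

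Nr1d1, the most abundant member in both fat depots of both genotypes, was called in no tissue. In iBAT it was 55.2 to 84.7 in WT and 59.5 to 94.7 in LFABP-/- mice (log2 fold change 0.14, interval -0.21 to 0.49). In iWAT it was 169.9 to 276.2 and 161.6 to 245.6 (interval -0.37 to 0.31), and in liver 48.7 to 80.2 and 55.8 to 110.3 (interval -0.25 to 0.59). These intervals leave room for changes of up to 0.59 on the log2 scale.

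**Figure D3:**
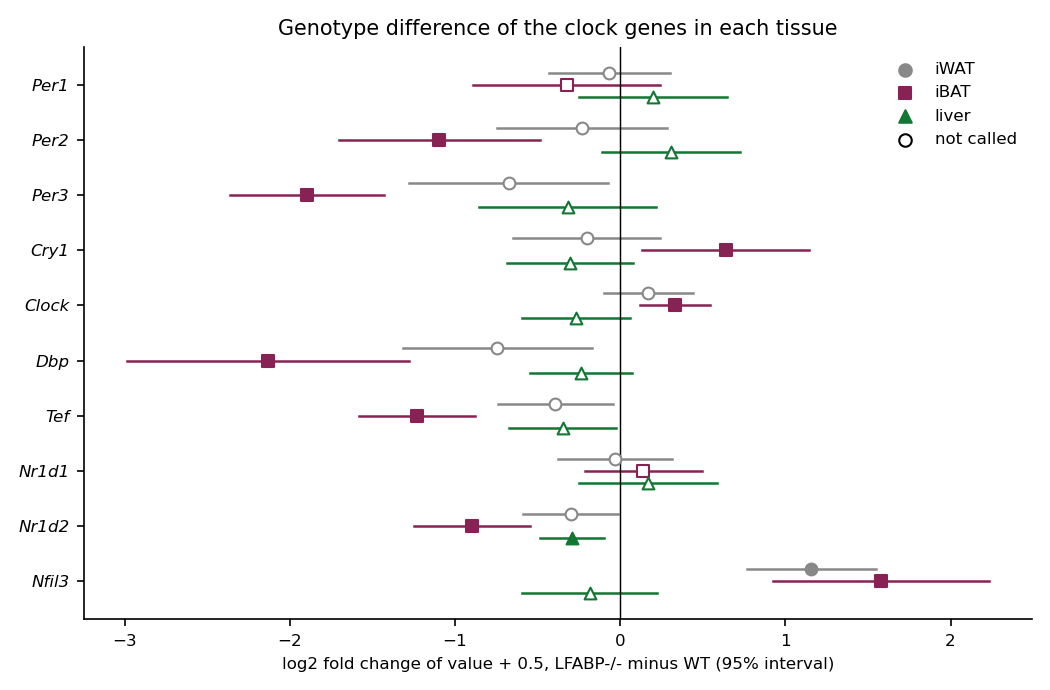
Log2 fold change of LFABP-/- against WT (x axis) for each clock gene (rows), with 95% intervals, in iWAT (grey circles), iBAT (purple squares) and liver (green triangles), n = 5 against 5, filled where called. The iBAT values spread from -2.13 for Dbp to 1.58 for Nfil3, and the liver values stay between -0.35 and 0.31.

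The prefix of the library names (G30 or G32), taken for each mouse from its iBAT and liver names, is not explained in the sources used here. For WT replicates 4 and 5 the prefix in iWAT was G30, unlike the G32 of their other tissues. With it as a term, the same number of members was called in iBAT, 8. For Dbp in iBAT the means were 43.1 (WT, n = 3) and 6.20 (LFABP-/-, n = 2) among G30 names and 64.1 (n = 2) and 16.9 (n = 3) among G32 names. For Nfil3 they were 10.4 and 61.1, and 20.5 and 32.8. With the skeletal muscle markers of iBAT as a covariate, 8 members were again called.

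Whether a genotype difference was shared by the tissues was asked by fitting the 30 libraries together in limma, with a random effect of mouse. The consensus correlation within a mouse over all genes was -0.016, so its 3 libraries entered nearly as independent. The median same-mouse r of the members, given below, was 0.46 to 0.68. The errors of the averaged contrast may therefore be too small for them. Averaged over the 3 tissues, 6 members were called (29.5% of all genes, 12.6% higher and 17% lower): Dbp (-1.04), Per3 (-0.96), Tef (-0.66), Nr1d2 (-0.50) and Per2 (-0.34) were lower and Nfil3 (0.85) was higher, on the log2 scale. With 1 value per mouse, 5 of these were called, and Per2 was not (limma adjusted p = 0.254). Of all 13925 genes tested, that fit called 1434 higher and 1888 lower. Per2 was not called with median-ratio scaling either, which moved the calls over all genes from 1750 higher and 2361 lower to 2545 and 2025. An average does not require each tissue to take part. Dbp, Tef, Per3 and Nr1d2 had a negative estimate in all 3 tissues, of which iBAT and, for Nr1d2, liver were called alone.

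The size of the difference itself varied with tissue. An overall test of genotype by tissue called 8 members, all but Per1 and Nr1d1, against 19.4% of all genes. Between iBAT and iWAT, 5 genotype differences were called as unequal (11.9% of all genes, 5.39% higher and 6.48% lower): Dbp by -1.39, Per3 by -1.22, Tef by -0.84, Nr1d2 by -0.60 and Cry1 by 0.84 on the log2 scale. Between liver and iBAT there were 8 (16.7%, 5.21% higher and 11.5% lower), of which Dbp was the largest at 1.89 (limma adjusted p = 0.0047), followed by Nfil3 at -1.76 (limma adjusted p = 0.00147). Between liver and iWAT there was 1 (3.60%, 0.969% higher and 2.63% lower), Nfil3 at -1.34 (limma adjusted p = 0.0412), lost without WT replicate 5 or LFABP-/- replicate 5. For Dbp, Per3, Tef and Nr1d2 the liver and iWAT differences were not called as unequal, with log2 differences of 0.51, 0.36, 0.04 and 0.01 (SE 0.43, 0.37, 0.23 and 0.19). The count between iBAT and iWAT was 2 without WT replicate 1 or LFABP-/- replicate 2 and 3 without LFABP-/- replicate 3. Without the iWAT library labelled LFABP-/- replicate 1 alone, it was 5, with Cry1 not called (limma adjusted p = 0.129) and Per2 called (limma adjusted p = 0.0543), and Per2 was not called in the average over tissues (limma adjusted p = 0.153). With 1 value per mouse the counts were 5, 9 and 1, with Cry1 no longer called between iBAT and iWAT (limma adjusted p = 0.188) and Per2 called (limma adjusted p = 0.0362).

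Mice also differed within a genotype, and part of that spread was common to their tissues. LFABP-/- replicate 1 had the lowest Dbp, Per3 and Tef of its genotype in iBAT (4.7, 1.4 and 15.6) and in liver (103.4, 3.9 and 35.6), and LFABP-/- replicate 2 had the second lowest Dbp in both. The iWAT library labelled LFABP-/- replicate 1 was also lowest (41.1, 7.8 and 41.6), but its Fabp1 and hepatocyte markers go against its label. It is not counted as that mouse in this comparison of lowest values, but it is kept in the correlations over 10 mice. Dbp in LFABP-/- mice spanned 4.7 to 24.7 in iBAT, wider in ratio than the 31.5 to 72.9 of WT. For each member and pair of tissues, the log2 deviation of each mouse from its genotype mean was correlated over the 10 mice, with an exact permutation of mice within genotype and adjustment over the 30 relations. Of the 30, 27 were positive, 9 had an unadjusted p under 0.05 and 6 were called. The median r of the 10 members was 0.68 between iWAT and iBAT, 0.46 between iWAT and liver and 0.60 between iBAT and liver, and over 5953 genes it was 0.00, -0.15 and 0.09. Without LFABP-/- replicate 1, 23 of the 30 were positive. Between iWAT and liver, r was then 0.61 for Cry1, 0.54 for Per1, 0.44 for Nr1d1, 0.34 for Nr1d2 and 0.28 for Dbp. It was -0.008 for Per2, -0.03 for Clock, -0.09 for Nfil3, -0.14 for Per3 and -0.61 for Tef.

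Between iBAT and liver, Dbp gave Pearson r = 0.909 (exact permutation p = 0.0011, adjusted p = 0.0160) and Spearman rho = 0.915 (exact permutation, adjusted p = 0.0104), and r = 0.883 without the 2 mice farthest from the median. An r at least that high was found for 0.134% of the 5953 genes. Nfil3 gave r = 0.865 (exact permutation p = 0.000347, adjusted p = 0.0104) and rho = 0.952, and r = 0.781 without the 2 mice. Per1 gave r = 0.687 (exact permutation, adjusted p = 0.084). Between iWAT and iBAT, Nr1d2 gave r = 0.811 (exact permutation p = 0.0016, adjusted p = 0.0160), rho = 0.842 and r = 0.939 without the 2 mice. Per2 (r = 0.752) and Per3 (r = 0.781) were called as well (exact permutation, adjusted p = 0.084 for both), but Per3 fell to r = 0.386 without the 2 mice and rests on them. No relation between iWAT and liver was called.

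With the mean of genotype and prefix removed and mice permuted within both, only 144 arrangements exist, so no p can be under 0.0069 and a lack of calls over 30 relations says little. By size, 22 of the 30 were still positive. Between iBAT and liver, r was 0.748 for Dbp (exact permutation p = 0.0417) and 0.625 for Nfil3 (exact permutation p = 0.0347). Between iWAT and iBAT it was 0.845 for Nr1d2 (exact permutation p = 0.0278) and -0.772 for Cry1 (exact permutation p = 0.0486). With genotype means alone removed, only 3 relations were called without WT replicate 2, WT replicate 3, LFABP-/- replicate 1 or LFABP-/- replicate 2, and 10 without WT replicate 4. The 3 left without LFABP-/- replicate 1, whose iWAT library is in doubt, were Nr1d2 between iWAT and iBAT (r = 0.945) and Nfil3 and Dbp between iBAT and liver (r = 0.866 and 0.840).

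**Figure D4:**
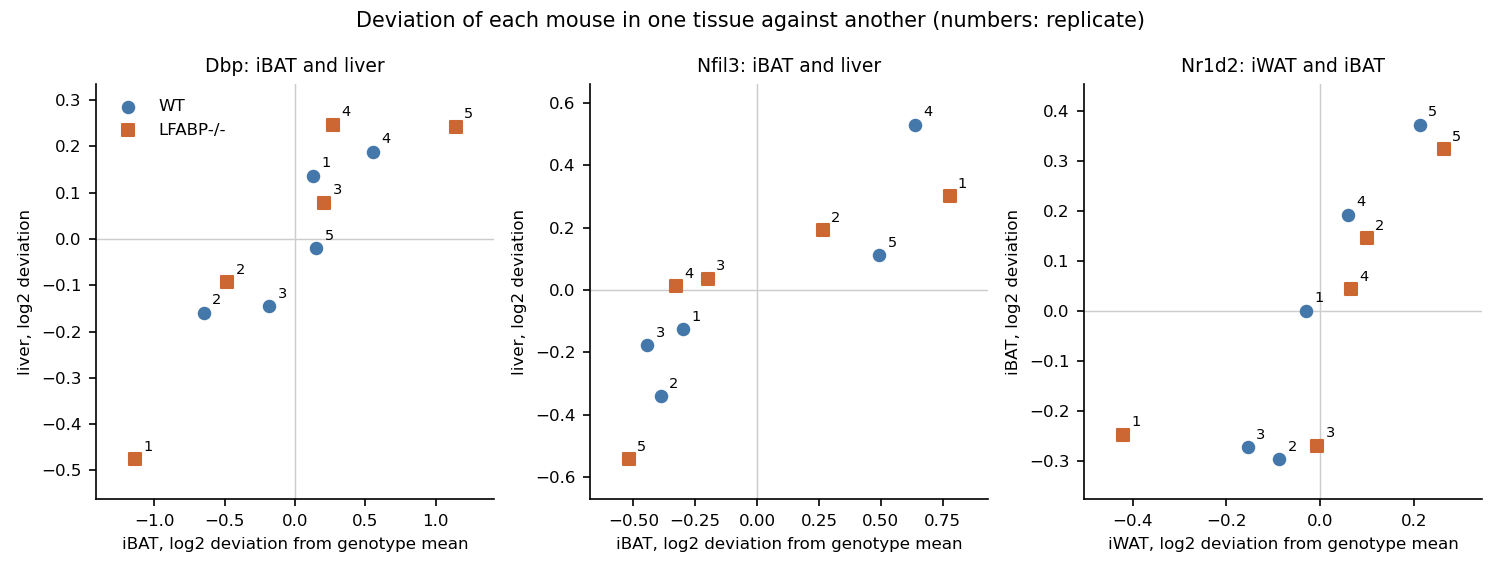
Log2 deviation of each mouse from its genotype mean in 1 tissue (x axis) against another (y axis) for Dbp and Nfil3 (iBAT and liver) and Nr1d2 (iWAT and iBAT), with blue circles for WT, orange squares for LFABP-/- and replicate numbers beside them. Points run from lower left to upper right in each panel (r = 0.909, 0.865 and 0.811).

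The 37 other clock genes, listed by role, were read in the same fits. Of 32 tested in iBAT, 7 rose and 16 fell. Of 34 tested in liver, 3 rose and 7 fell, and of 33 tested in iWAT, 1 rose. Over all genes the shares were 22.3% higher and 25.5% lower in iBAT, 3.08% and 13.9% in liver and 0.682% and 0.770% in iWAT, so the share that rose in iBAT was that of all genes. Of the activators, Arntl, the partner of CLOCK, was 0.6, 0.9, 0.7, 0.9 and 1.1 in iBAT of WT and 7.7, 5.5, 4.8, 4.1 and 3.1 in LFABP-/- mice. No value overlapped, and its log2 fold change of 2.01 had an SE of 0.20 (limma adjusted p = 0.00013). In iWAT it was 0.70 (limma adjusted p = 0.556), in liver its mean was under 1 and it was not tested, and Npas2 was under 1 in all 3 tissues.

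All 4 other repressors fell in iBAT: Bhlhe40 (-1.0), Bhlhe41 (-0.79), Cry2 (-0.64) and Ciart (-0.62), and 2 of them rose in liver, Bhlhe40 (0.60) and Bhlhe41 (0.65). Hlf, the third PAR bZIP factor, was 12.6 ± 3.09 in WT and 5.74 ± 0.99 in LFABP-/- iBAT (SD, n = 5, log2 fold change -1.05, limma adjusted p = 0.0011). Rora, a receptor that activates the sites REV-ERB represses, was not called in iBAT (-0.02). Among kinases and genes of the ubiquitin system in iBAT, Csnk1a1, Fbxw11 and Csnk1d rose (0.47, 0.38 and 0.34) and Usp2 and Btrc fell (-1.08 and -0.23). Csnk1a1 and Csnk1d encode casein kinases that phosphorylate PER.

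Of 7 partners in iBAT, Ppargc1a, a coactivator of ROR receptors and of mitochondrial genes, rose from 14.7 ± 3.13 to 56 ± 29 (SD, n = 5, log2 fold change 1.79), and Timeless, Sirt1, Nono and Ncor1 fell (-0.50, -0.38, -0.17 and -0.17). In liver only Ncor1 of these was called (-0.47). Of the clock-controlled outputs in iBAT, Alas1, the first enzyme of heme synthesis, rose from 45.1 ± 14.8 to 269 ± 56.5 (SD, n = 5, log2 fold change 2.59), Gys2 rose (0.58), and Nampt, Ppard and Wee1 fell (-0.73, -0.72 and -0.62). In liver 6 of 12 outputs fell: Por (-1.02), the reductase that serves cytochrome P450 enzymes, Wee1 (-0.82), Tspan4 (-0.64), Lonrf3 (-0.53), Ppard (-0.44) and Nampt (-0.39). Tsc22d3, also induced by glucocorticoids, rose in liver (0.74) and was the 1 call in iWAT (0.74, limma adjusted p = 0.0829), lost without any single library other than that of WT replicate 4. The liver count was 3 without WT replicate 2, 6 without LFABP-/- replicate 1 or 5, and 10 with all libraries.

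**Figure D5:**
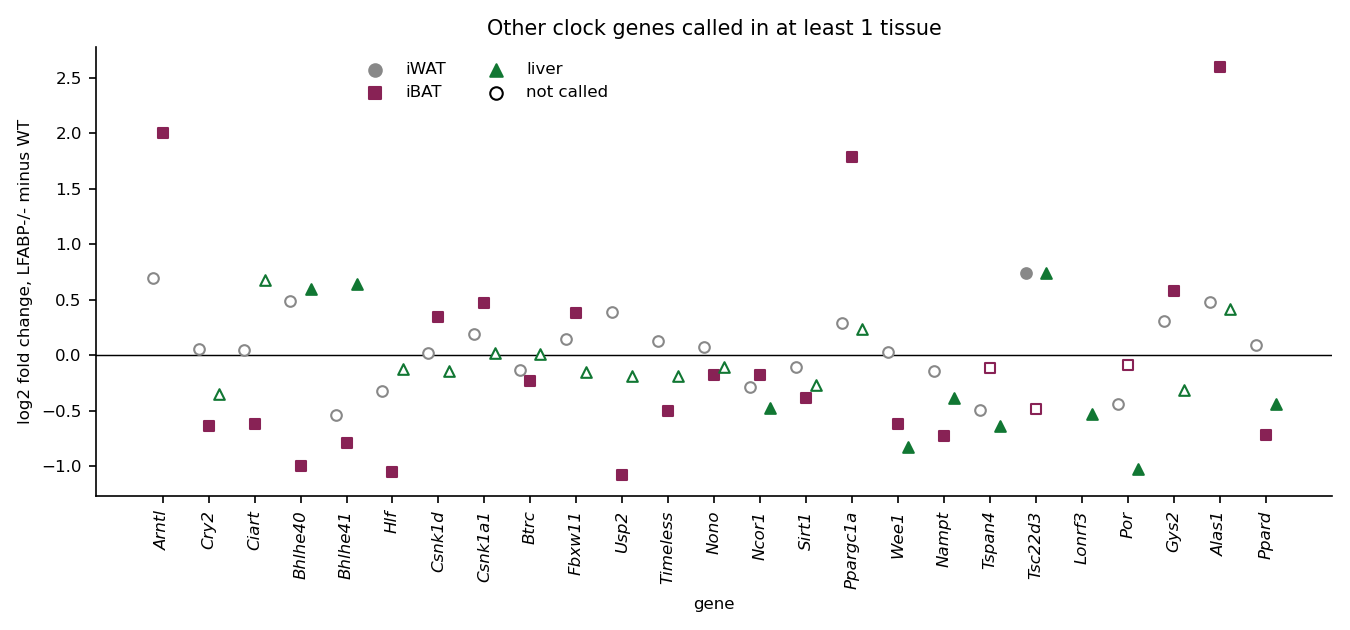
Log2 fold change of LFABP-/- against WT (y axis) for 25 other clock genes called in at least 1 tissue (x axis), in iWAT (grey circles), iBAT (purple squares) and liver (green triangles), filled where called. Arntl, Ppargc1a and Alas1 stand above 1.7 in iBAT, and Bhlhe40 and Bhlhe41 lie on opposite sides of 0 in iBAT and liver.

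Genes of other signals that reach Per1 and the clock were read beside them. Of 14 glucocorticoid-induced genes, 3 rose in iWAT (Mt2, Mt1 and Tsc22d3). Of 13 tested in iBAT 4 rose and 4 fell, and 4 of 14 rose in liver. The metallothioneins Mt1 and Mt2 rose in iWAT (1.08 and 1.75) and fell in iBAT (-1.27 and -1.72). Of the immediate early genes, 0 of 10 were called in iWAT, 2 of 10 rose in iBAT and 2 of 8 in liver. Of 8 temperature-responsive genes, none was called in iWAT, 2 rose and Cirbp fell in iBAT and 2 rose in liver. These counts stand beside calls of 47.8% of all genes in iBAT (22.3% higher), 16.9% in liver (3.08% higher) and 1.45% in iWAT, and nothing particular to these lists is read from them. Cirbp, which encodes a cold-inducible RNA-binding protein, was 10.2 ± 0.99 in WT and 5.68 ± 0.70 in LFABP-/- iBAT (SD, n = 5, log2 fold change -0.79). The 2 temperature-responsive genes that rose in iBAT were Rbm3 and Dnajb1. Rbm3 was 14.4 ± 0.88 in WT and 22.3 ± 4.24 in LFABP-/- iBAT (SD, n = 5, log2 fold change 0.60), and the log2 fold change of Dnajb1 was 0.93. The part of these signals in the clock gene values was not tested.

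Some of the members also moved together from library to library. With the mean of each group removed, Per3 and Tef gave r = 0.872 over the 30 libraries (0.895, 0.911 and 0.832 within iWAT, iBAT and liver), and Dbp and Tef r = 0.835. The other members gave r with Dbp of 0.806 (Per3), 0.772 (Per2), 0.662 (Nr1d2), 0.521 (Per1), 0.051 (Nr1d1), -0.151 (Cry1), -0.380 (Nfil3) and -0.454 (Clock). Clock ran opposite to Dbp in iBAT (r = -0.700) and liver (r = -0.922), but not in iWAT (r = -0.031). Among 5953 genes with a mean of at least 5 in each tissue, the 6 with the highest r with Dbp were Tef (0.835), Per3 (0.806), Per2 (0.772), Cry2 (0.726), Nr1d2 (0.662) and Hlf (0.618), all clock genes. The 4 lowest were Wipi2 (-0.705), Irak2 (-0.693), Desi1 (-0.688) and Plk3 (-0.686). For Per1 the list was less of the clock: Nr1d2 (0.731), Tsc22d3 (0.692), Zbtb16 (0.689), Bcl2l1 (0.631), Per2 (0.600) and Tef (0.599) were highest, and Phlda1 (-0.699), Tbc1d13 (-0.517), Mup17 (-0.510) and Mup15 (-0.492) lowest. The libraries share mice and the values of a library share 1 total, so these are descriptions.

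In WT mice the order of levels differed by tissue. In WT iBAT, Nr1d1 (69.3 ± 14), Tef (52.0 ± 8.41) and Dbp (51.5 ± 15.3) were highest, with Tef and Dbp within their spread, followed by Nr1d2 (29.6 ± 6.09), Per1 (23.5 ± 7.45), Nfil3 (14.4 ± 5.57), Per3 (10.9 ± 2.49), Per2 (10.6 ± 3.90), Clock (7.06 ± 0.88) and Cry1 (6.20 ± 1.21), where the last 2 were within their spread and so were Per3 and Per2. In LFABP-/- iBAT, Nfil3 moved from the sixth place to the second and Per3 was last (2.62 ± 0.82). In WT iWAT, Nr1d1 led (217 ± 39.3) and Nfil3 was last (8.62 ± 1.43). In WT liver, Dbp led (171 ± 19) and Clock was last (5.24 ± 0.90).

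Levels between tissues depended on the scaling, since mitochondrial genes held 54.4% to 60.1% of the value in WT iBAT and 12.1% to 15.1% in WT liver. As deposited, all 10 members were called between iBAT and iWAT (91.9% of all genes, 7.29% higher and 84.6% lower), 9 lower in iBAT, at a median of all genes of -1.35. With median-ratio scaling (median -0.07), 5 were called, all higher in iBAT. Over all 13486 genes tested under that scaling, 4664 were called higher and 5101 lower, so a call was common there too. Nfil3 was higher in iBAT than in iWAT under both, and without mitochondrial genes, at 0.65, 1.98 and 1.61 on the log2 scale. Between liver and iWAT 8 were called (91.3% of all genes, 13.7% higher and 77.6% lower), with Nfil3 higher in liver at 1.61, 2.81 and 1.56 under the same 3 scalings. Between liver and iBAT 4 were called (73.7%, 40.1% higher and 33.6% lower). Dbp was higher in liver than in iBAT at 1.76 as deposited, 1.64 with median-ratio scaling and 0.74 without mitochondrial genes.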

How the data were processed

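The authors sequenced poly(A) RNA and counted it in CLC Genomics Workbench, against Ensembl models on GRCm38. The authors deposited 1 value per gene and library, headed RPKM. The deposited values sum to 999967 to 999996 in each library, so they are used as TPM, and the depth behind them is unknown. Every value column was used.

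Genes with a mean of at least 1 in the libraries of a fit were tested on log2(value + 0.5) with limma 3.58.1 (R 4.3.3, intensity trend, two-sided), with Benjamini-Hochberg adjustment over all genes tested, and called at an adjusted p under 0.1. The 30-library fit used duplicateCorrelation with the mouse as block (statmod 1.5.0, consensus correlation -0.016). Fold changes are on the log2(value + 0.5) scale. Single genes were also compared by exact permutation. Scripts were tested on simulated data. The members and lists were chosen with earlier results of these data known. All members were named, with the other clock genes called, some of which enter the counts but are not reported here by name, and by correlation the 6 highest and 4 lowest genes. Replicates are separate mice. The same number marks the same mouse in the 3 tissues, and different mice between genotypes. Alternatives covered the pseudocount (0.1 and 1), the filter (none and 20), scaling, trend, prefix, replicate block, marker covariates and each library left out. Promoter windows came from RefSeq (GRCm38.p6) and exons from GENCODE M21. Python 3.11.15, pandas 2.3.3 and NumPy 2.4.6 were used.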

Additional observations from a re-analysis of the deposited data

Results flagged for a closer look

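Genotype differences (LFABP-/- minus WT, log2) that differed between tissues by the test of the difference itself were the following. Between iBAT and iWAT they were -1.39 for Dbp, -1.22 for Per3, -0.84 for Tef, -0.60 for Nr1d2 and 0.84 for Cry1. Between liver and iBAT they were 1.89 for Dbp, 1.58 for Per3, 1.40 for Per2, 0.88 for Tef, 0.60 for Nr1d2, -0.60 for Clock, -0.94 for Cry1 and -1.76 for Nfil3. Between liver and iWAT it was -1.34 for Nfil3. No group of 5 libraries held a value of a member far from the others by Dixon's test (60 groups were tested).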

How the results depend on the processing

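With the filter at a mean of 20, which leaves 6 or 7 members to test, 0 members were called in iWAT, 4 in iBAT, 4 in the overall test of genotype by tissue, 3 between iBAT and iWAT and 4 between liver and iBAT, 6 and 4 in WT for iBAT and for liver against iWAT, and 9, 4 and 9 other clock genes in iBAT, in liver and averaged. Nfil3, the member called in iWAT, had means there of 8.62 in WT and 20.02 in LFABP-/- mice, so the filter at 20 left it untested. In all 11 alternatives that tested it in iWAT, Nfil3 stayed called. Per2, Per3, Cry1 and Clock in iBAT were likewise untested under that filter. With no filter, 0 other clock genes were called in iWAT and 5 in liver. Median-ratio scaling left 0 members in liver, 0 between liver and iWAT, 5 in WT between iBAT and iWAT and 3 same-mouse relations. Rescaling without mitochondrial genes left 0 in liver, and 3 and 9 in WT for iBAT against iWAT and liver against iBAT. Of all 14585 genes tested in WT under it, 2888 were higher and 8577 lower in iBAT than in iWAT. Between liver and iBAT these were 2490 and 9895. With the prefix as a term, 2 members were called in liver (Tef added, limma adjusted p = 0.0821) and 2 other clock genes in iWAT. A fit of all 30 libraries left 0 in liver. The lymphocyte covariate gave 2 members (Cry1 added at -0.35) and 5 other clock genes in iWAT, and the muscle covariate 0 other clock genes. Over all 14668 genes tested in iWAT, the main fit called 100 higher and 113 lower. The lymphocyte covariate called 519 and 703 of them, and the muscle covariate 39 and 15. Spearman's rho called 3 relations, and removal of the prefix mean 0, with only 144 arrangements to draw on. That removal, 1 value per mouse, the muscle covariate in iBAT and the omission of libraries labelled LFABP-/- with high Fabp1 were chosen after seeing the data. The causes were not tested.

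The replicate number marks different mice in the 2 genotypes, so the numbers do not pair them. Deviations of same-numbered mice correlated at -0.53 to 0.67, and in iWAT at 0.50, -0.33, 0.51, 0.67 and 0.66 for replicates 1 to 5. With the replicate block, 0 members were called in liver (Nr1d2, limma adjusted p = 0.105), with 3 other clock genes in iWAT and 6 in liver. The other member counts stayed within 1.5 times.

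With 1 library or mouse left out, members called were 1 to 1 in iWAT, 7 to 8 in iBAT and 0 to 2 in liver, 5 to 6 averaged, 6 to 8 in the overall test, 2 to 5 between iBAT and iWAT, 0 to 1 between liver and iWAT and 7 to 8 between liver and iBAT. Other clock genes called were 0 to 1 in iWAT, 21 to 24 in iBAT and 3 to 10 in liver, and relations 3 to 10. No estimate that was called turned in sign. Of those not called, Per1 in iWAT ranged from -0.16 to 0.060, Nr1d1 in iWAT from -0.11 to 0.063 (0.021 and 0.010 with the lymphocyte and muscle covariates), averaged Per1 from -0.16 to 0.038 and averaged Cry1 from -0.014 to 0.16. The depth of the libraries is unknown, so how much of the spread at low values is counting error cannot be told.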
